A study of Mus musculus with 20 samples.

Results

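The mouse brain genes described here mark the cells of the vessel wall and of the fibroblast layers around it. They number 38 of the 55291 gene symbols in the count table and were chosen by name, with no measured value in the rule: 14 mural genes, of which 8 mark pericytes and 6 mark smooth muscle, and 24 fibroblast and extracellular matrix genes. RNA from the left hemibrain of 20 female mice at 18 months of age (MO) was sequenced, with 5 mice in each of the groups APOE2, APOE3, APOE4 and APOE4D. In all groups the mice were C57bl/6 and homozygous for human APOE in place of mouse Apoe, under the endogenous murine promoter, so that each group is an allele replaced in the whole body and no group kept the mouse gene intact. The alleles were APOE2, APOE3 and APOE4, no treatment is named in the labels, and APOE4D carries the genotype label APOE4, with the letter D not explained. The mice of APOE4D were therefore kept as a group of their own.

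Pericytes wrap the endothelium of capillaries, smooth muscle cells ring the arterioles and arteries, and fibroblasts lie in the meninges and around larger vessels, where they make collagen-rich matrix. Mural cells are recruited by platelet-derived growth factor from the endothelium and shaped by Notch signals, and they share with endothelial cells a basement membrane of type IV collagen and laminin. Smooth muscle cells carry a contractile apparatus of actin, myosin and their regulators. Meningeal fibroblasts also carry transporters and secreted proteins that few other brain cells make, although Ptgds and Igfbp2 are made by other brain cells as well, and Vtn and Fn1 are not limited to vessels.

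Past the threshold used here, Mgp, Col6a1, Col6a2, Col4a2 and Higd1b were lower in APOE4 than in APOE3, Tagln and Igfbp2 were lower in APOE2 than in APOE3, Col4a2 and Mgp were lower in APOE4D than in APOE3, and Notch3 was lower in APOE2 than in APOE4D. None of the genes was higher in another group than in APOE3 past it. The APOE3 mice F37N and F10N were the highest 2 of their group in 24 of the 38 genes. With both left out, only Col6a1 and Col6a2, lower in APOE4, passed against APOE3. These mice were picked for being high in these same genes. Leaving them out therefore lowers the APOE3 mean in most of the genes by construction, and it leaves 3 APOE3 mice. Col6a1 did not pass with F37N alone left out (edgeR adjusted p = 0.0591).

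All 38 genes passed the filter of more than 0.1 CPM (read counts scaled to a common library size) in over 40% of the libraries, with at least 19 reads in every library. Library depth was 32404258 to 51960932 reads. Values are CPM after scaling by the trimmed mean of M-values (TMM), given by mouse in the order FH124, F74M, F42N, FH111 and F35J for APOE2, F61N, F37N, F39N, F10N and F64M for APOE3, F95K, F78N, F58M, FH78 and FH66 for APOE4, and F12M, FH85, FH68, F19M and FH51 for APOE4D. The APOE3 library F61N held 48 reads of Xist, an RNA of the inactive X chromosome, where the 19 other libraries held 12151 to 24959, which goes against its female label. Mouse IDs beginning with FH occurred in 2 APOE2, 2 APOE4, 3 APOE4D and 0 APOE3 mice, so any difference tied to that series could not be compared within APOE3. Differences between groups are log2 fold changes, first group over second, with ± for their standard error, and they pass at an adjusted p under 0.05 over all genes tested. In bulk tissue, fewer cells of a type and less RNA per cell cannot be told apart, and the amount of meninges and vessel kept with each hemibrain was not measured.

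Levels between genes were compared only as CPM per kb of canonical transcript, averaged over the 20 mice. Ptgds, the prostaglandin D2 synthase made by meningeal cells, stood first at 578 CPM per kb, above every other member by more than the summed SDs, and made up 57.0% to 70.8% of the summed CPM of the 24 fibroblast genes in a library. Next came Vtn (vitronectin, a plasma and pericyte adhesion protein) at 49.8 CPM per kb, Mgp (matrix Gla protein, an inhibitor of calcification) at 49.7, Igfbp2 (a carrier of insulin-like growth factors) at 34.9, Rgs5 at 30.3 and Col6a1 at 28.2. Neighbours in that run did not differ beyond their spread. The lowest 2 were Col3a1 at 0.524 and Cnn1 at 0.482 CPM per kb. A hemibrain thus gave a level for every defining marker, but the lowest of them rest on few reads, and no marker of either set was at 0 in any library.

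**Figure D1:**
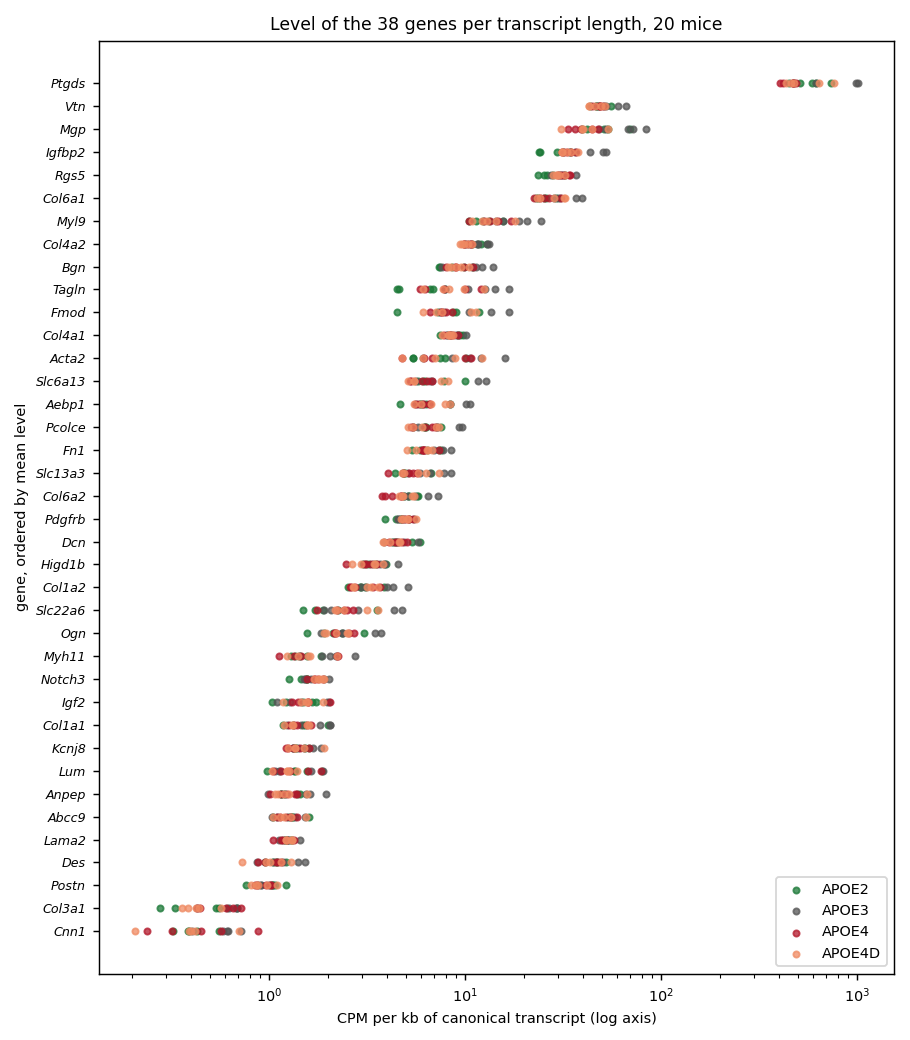
CPM per kb of canonical transcript (log axis) for the 38 genes, ordered by mean level from Ptgds at 578 down to Cnn1 at 0.482, with 1 point per mouse coloured by group. The points of a gene spread over less than the distance between the top and bottom of the list, and APOE3 points often form the right end of a row.

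The spread between mice of 1 group differed between the gene sets and within the fibroblast set. In APOE2, APOE3, APOE4 and APOE4D, respectively, the median coefficient of variation (CV) over the 8 pericyte genes was 10.5%, 13.5%, 8.19% and 11.2%. For the 6 smooth muscle genes it was 18.1%, 22.7%, 31.0% and 25.3% in that order, and for the 24 fibroblast genes 17.5%, 20.6%, 11.1% and 13.1%. Within the fibroblast set, it was 9.94%, 9.57%, 6.08% and 4.54% for the 3 basement membrane genes. For the 3 transporter genes it was 24.7%, 37.8%, 12.7% and 21.7%. Over all 12324 tested genes with a mean of 3 to 200 CPM the median CV was 5.2% to 7.17%. The medians of the pericyte, smooth muscle and fibroblast sets lay above that range in each group, although that of the basement membrane genes did not in APOE4 and APOE4D.

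Much of that spread came as whole libraries that were high or low together. F37N, an APOE3 mouse, was the highest of the 20 libraries in 25 of the 38 genes, and F10N, also APOE3, in 3. Both were the 2 highest APOE3 libraries in 24 of 38 genes, namely in 18 of 24 fibroblast genes, 5 of 6 smooth muscle genes and 1 of 8 pericyte genes. The median departure from the 20-library mean over the 38 genes was 0.51 in F37N and 0.35 in F10N on the log2 scale. FH66 in APOE4 and FH68 in APOE4D were at -0.22, and F35J in APOE2 was at -0.20. In APOE2, FH124 was the highest mouse of its group in 27 genes, and in APOE4D, FH85 was the highest in 23. F61N was the lowest APOE3 mouse in 21 genes. Counts and medians over the 38 genes against APOE3 are therefore also given without F10N and F37N, and without F61N, whereas most single genes are given with all 5 APOE3 mice. F10N and F37N were thus picked by these same genes, so leaving them out lowers the APOE3 mean in most of them by construction. Leaving out F61N raises that mean in most of them.

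**Figure D2:**
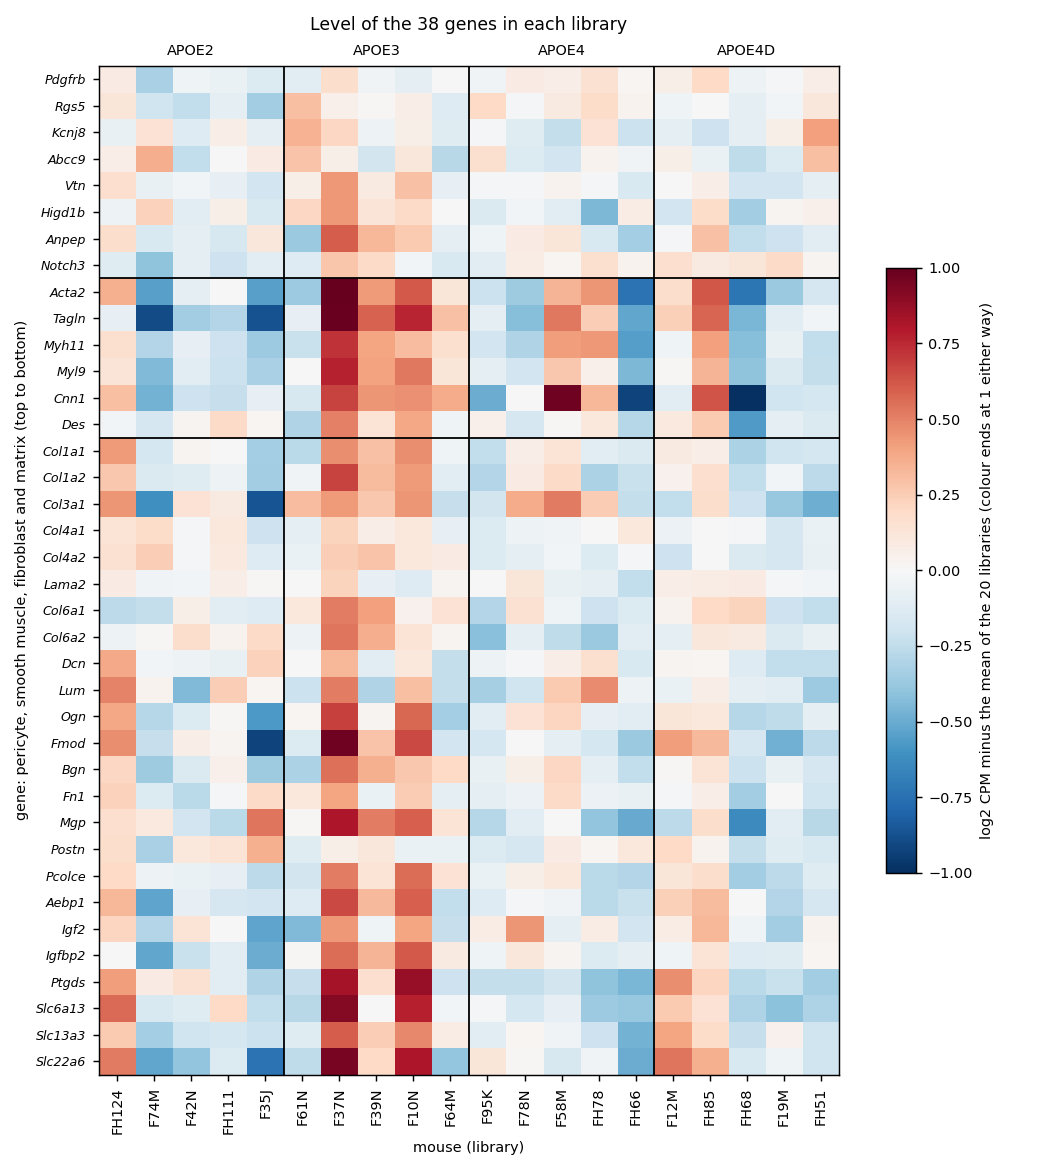
Log2 CPM of each of the 38 genes (rows, pericyte, smooth muscle, then fibroblast and matrix) in each of the 20 libraries (columns, by group), minus the mean of the gene over the 20 libraries. Columns F37N and F10N are red through most smooth muscle and fibroblast rows, while the pericyte rows vary less.

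**Figure D3:**
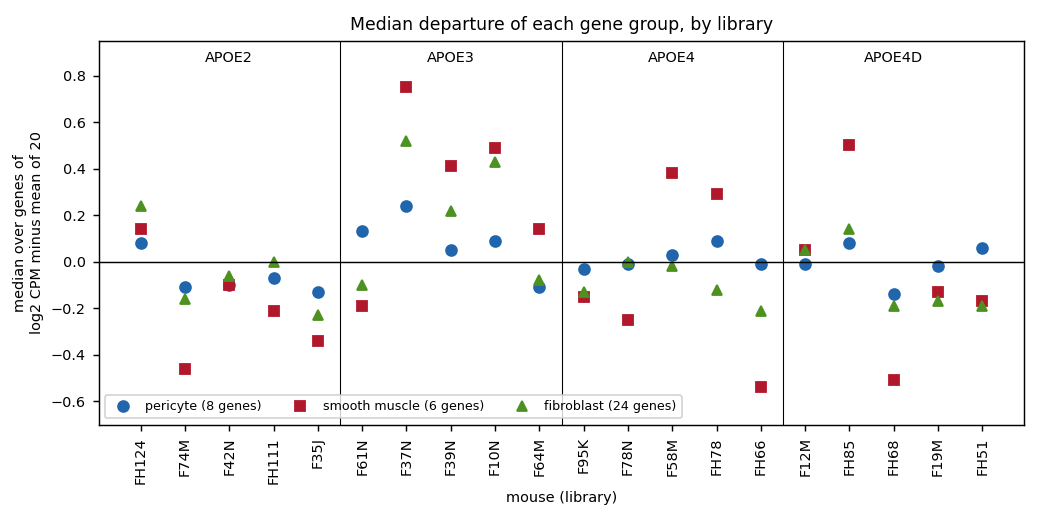
Median over the genes of each set of log2 CPM minus the 20-library mean, for the 20 libraries, with circles for 8 pericyte, squares for 6 smooth muscle and triangles for 24 fibroblast genes. F37N has the highest median of all 3 sets, and the squares reach farthest from 0 in both directions.

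Markers of other cells that a hemibrain holds were read in the same libraries. Red cell transcripts (8 genes) summed to 528 to 776 CPM in APOE3, 421 to 519 in APOE2, 416 to 471 in APOE4 and 442 to 598 in APOE4D. Of these 8 genes, 7 were lower in APOE4 than in APOE3 by edgeR, with a median log2 fold change of -1.36, and F61N and F37N had the highest 2 sums. Border macrophage genes (10, with 1 lower in APOE4 than in APOE3) summed to 34.1 to 46.3 CPM in APOE3 and 31.1 to 35.4 in APOE4, with F37N and F10N at 46.3 and 44.9, the highest 2 of the 20 libraries. Those same mice also had the highest endothelial sums (12 genes), 472 and 463 CPM, although the endothelial ranges of APOE3 (394 to 472) and APOE4 (415 to 443) overlapped and 2 of the 12 genes were lower in APOE4. Choroid plexus genes (12) summed to 760 to 1028 CPM in APOE3 and 691 to 930 in APOE4, with 2 higher in APOE4 (Tmem72 and Prlr). By that sum F37N was at rank 8 and F10N at rank 13 of the 20 libraries. Ependymal (10 genes, 46.4 to 56.6 CPM in APOE3 and 41.4 to 56.5 in APOE4), olfactory ensheathing (6 genes, 1719 to 1857 and 1851 to 2146) and neuronal sums (9 genes, 7707 to 8533 and 7981 to 8101) overlapped between the 2 groups, with 0 ependymal and 0 olfactory ensheathing genes past the threshold and 1 neuronal gene higher and 2 lower in APOE4. None of these markers was at 0 in every library. Of all genes tested, 21.0% passed between APOE4 and APOE3, and 10.2% were lower. The share was 87.5% of red cell, 33.3% of neuronal, 16.7% of endothelial and of choroid plexus, and 10.0% of border macrophage genes. The part of blood, border macrophages and endothelium in the differences given next was not tested.

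Among pericyte genes, the defining markers Pdgfrb and Rgs5 did not pass between any groups in the fits of 15 or 20 libraries. Pdgfrb stood at 28.0, 21.1, 25.7, 25.2 and 24 CPM for the APOE2 mice, at 24.6, 29.9, 25.9, 24.8 and 26.4 for APOE3, at 25.8, 27.9, 27.7, 29.4 and 26.7 for APOE4 and at 27.5, 30.4, 25.6, 26.1 and 27.7 for APOE4D. Pdgfrb is the receptor through which platelet-derived growth factor holds pericytes to the capillary, and the values of the 4 groups overlapped. Rgs5 stood at 135, 108, 105, 117 and 97.8 CPM for the APOE2 mice, at 153, 128, 125, 130.4 and 114 for APOE3, at 143, 123, 132, 141 and 127 for APOE4 and at 121, 125, 117, 122 and 135 for APOE4D. Rgs5 dampens G protein signals in pericytes, and its highest value was in F61N and its lowest in F35J. Against APOE3, Pdgfrb in APOE4 had a log2 fold change of 0.07 ± 0.06 (edgeR adjusted p = 0.491) and Rgs5 had 0.04 ± 0.08 (edgeR adjusted p = 0.801), neither past the threshold. APOE2 was lowest in the mean of both, and the log2 fold change of APOE2 against APOE4 was -0.15 ± 0.07 (edgeR adjusted p = 0.191) for Pdgfrb and -0.25 ± 0.08 (edgeR adjusted p = 0.108) for Rgs5, also short of it. Rgs5 passed in that comparison by DESeq2, with the FH mice left out, without F61N or without FH124, each time alone among the mural genes. Its log2 fold change of APOE2 against APOE3 was -0.21 ± 0.08 (edgeR adjusted p = 0.182), and it passed there with the FH mice left out (0.0177), with a trend on transcript length and GC subtracted (0.034) and without FH124 (0.0374).

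Notch3, the Notch receptor of mural cells, was the 1 mural gene past the threshold between APOE2 and APOE4D. Notch3 stood at 12.5, 10.3, 12.7, 11.8 and 12.6 CPM for the APOE2 mice, at 12.4, 16.5, 15.5, 13.3 and 12.2 for APOE3, at 12.6, 14.4, 13.8, 15.2 and 14 for APOE4 and at 15.3, 14.5, 14.8, 15.5 and 13.8 for APOE4D. Each APOE2 mouse was below each APOE4D mouse, which holds for 2.78% of all genes in that direction. The APOE2 mean of 12 ± 1.01 CPM lay under the APOE4D mean of 14.8 ± 0.661 (SD, 5 mice each), a log2 difference of -0.31 ± 0.08 with adjusted p = 0.0156 by edgeR's quasi-likelihood test. Against APOE4 the same APOE2 mice gave a log2 fold change of -0.22 ± 0.08 (edgeR adjusted p = 0.114), and against APOE3 -0.22 ± 0.08 (edgeR adjusted p = 0.115). Without F74M or F19M the adjusted p for APOE2 against APOE4D was 0.0569 and 0.0503. The call ended with the FH mice left out, and over all alternatives the adjusted p ran from 0.0035 to 0.181. Notch3 lies on chromosome 17, 32120820 to 32166896 (GRCm38), and its span overlaps 2 predicted genes, whose reads could not be told apart without a stated strand setting.

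Higd1b, a small gene of the hypoxia-induced domain family used as a pericyte marker, was the 1 mural gene lower in APOE4 than in APOE3. Higd1b stood at 3.78, 4.59, 3.65, 4.08 and 3.52 CPM for the APOE2 mice, at 4.53, 5.29, 4.28, 4.49 and 3.93 for APOE3, at 3.55, 3.86, 3.61, 2.87 and 4.12 for APOE4 and at 3.43, 4.44, 3.08, 4.0 and 4.06 for APOE4D. The groups overlapped, since FH66 in APOE4 exceeded F64M in APOE3. The APOE4 mean of 3.60 ± 0.467 CPM lay under the APOE3 mean of 4.50 ± 0.499 (SD, 5 mice each), a log2 difference of -0.32 ± 0.11 with adjusted p = 0.0427 by edgeR's quasi-likelihood test. Leaving out F10N, F37N, F39N, F61N, F58M, F78N, F95K or FH78 ended the call, with adjusted p-values of 0.0798, 0.142, 0.058, 0.0599, 0.0777, 0.0549, 0.0742 and 0.163 in that order. Settings that ended it were no filter, only the groups compared in the fit, the series of the mouse IDs as a covariate, 1 surrogate variable, the FH mice left out, F61N left out, FH111 left out, F10N and F37N both left out and a trend on transcript length and GC subtracted, and over all alternatives the adjusted p ran from 0.0265 to 0.248. Higd1b (chromosome 11, 102835761 to 102844141) overlaps Eftud2, a spliceosome gene, in the annotation.

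The 4 other pericyte genes did not pass in any comparison. Kcnj8 and Abcc9, the pore and the sulphonylurea receptor of the vascular ATP-sensitive potassium channel, ran from 3.74 to 5.85 and from 7.71 to 12 CPM over the 20 mice. Anpep, a membrane aminopeptidase, ran from 3.64 in F61N to 7.14 CPM in F37N. Vtn ran from 75.6 in FH68 to 117 CPM in F37N, and its log2 fold change from APOE3 was -0.20 ± 0.08 (edgeR adjusted p = 0.105) in APOE4, -0.20 ± 0.08 (edgeR adjusted p = 0.187) in APOE2 and -0.24 ± 0.08 (edgeR adjusted p = 0.0743) in APOE4D.

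Smooth muscle genes had the widest range of the mural genes. Acta2 stood at 28.3, 15.2, 20.8, 22.2 and 15.2 CPM for the APOE2 mice, at 17.2, 44.7, 29.7, 33.8 and 24 for APOE3, at 19.1, 17.2, 28.1, 30.1 and 13.3 for APOE4 and at 25.0, 34.1, 13.4, 17.1 and 19.7 for APOE4D. Acta2 encodes smooth muscle alpha actin, and F37N stood far above the rest while the groups overlapped. Myh11 stood at 12.2, 8.92, 10.3, 9.44 and 8.50 CPM for the APOE2 mice, at 9.34, 18.0, 14.4, 13.5 and 12.2 for APOE3, at 9.55, 8.84, 14.6, 14.7 and 7.43 for APOE4 and at 10.6, 14.5, 8.10, 10.4 and 9.21 for APOE4D. Myh11 encodes the smooth muscle myosin heavy chain. F37N was highest and FH66 lowest of the 20 mice in both genes, and within APOE4, F58M and FH78 stood above the other 3 mice in both. Neither gene passed between any groups: Acta2 had a log2 fold change from APOE3 of -0.47 ± 0.29 (edgeR adjusted p = 0.291) in APOE4 and -0.55 ± 0.29 (edgeR adjusted p = 0.323) in APOE2, and Myh11 had -0.29 ± 0.21 (edgeR adjusted p = 0.383) and -0.45 ± 0.21 (edgeR adjusted p = 0.268).

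Tagln, which encodes the actin-binding protein transgelin of contractile smooth muscle, was lower in APOE2 than in APOE3. Tagln stood at 13.1, 7.48, 10.9, 11.4 and 7.60 CPM for the APOE2 mice, at 13.2, 27.6, 20.9, 23.6 and 17.1 for APOE3, at 13, 10.4, 20.1, 16.5 and 9.73 for APOE4 and at 16.4, 20.8, 10.1, 12.8 and 13.7 for APOE4D. The highest APOE2 mouse, FH124, was just under the lowest APOE3 mouse, F61N, and a full separation in this direction was seen in 2.70% of all genes. The APOE2 mean of 10.1 ± 2.48 CPM lay under the APOE3 mean of 20.5 ± 5.61 (SD, 5 mice each), a log2 difference of -1.01 ± 0.25 with adjusted p = 0.04 by edgeR's quasi-likelihood test. Without F35J, F74M, FH111, F42N, F10N, F37N or F39N the adjusted p was 0.0795, 0.107, 0.0658, 0.0699, 0.102, 0.0862 and 0.0856. It did not hold with no filter, only the groups compared in the fit, the series of the mouse IDs as a covariate, 1 surrogate variable, the FH mice left out, FH111 left out, F10N and F37N both left out and a trend on transcript length and GC subtracted, and over all alternatives the adjusted p ran from 0.00257 to 0.249. Tagln (chromosome 9, 45929628 to 45936058) overlaps Pcsk7, a proprotein convertase gene, in the annotation.

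Of the remaining smooth muscle genes, Myl9, the regulatory light chain of smooth muscle myosin, ran from 14.5 CPM in FH66 to 33.9 in F37N, with a log2 fold change from APOE3 of -0.46 ± 0.17 (edgeR adjusted p = 0.0691) in APOE4 and -0.57 ± 0.17 (edgeR adjusted p = 0.0706) in APOE2. Cnn1, the actin-binding protein calponin, ran from 0.505 CPM in FH68 to 2.16 in F58M, and Des, the intermediate filament desmin, from 2.28 in FH68 to 4.79 in F37N. None of the 3 passed in any comparison. The median log2 fold change from APOE3 over the 6 smooth muscle genes was -0.37 in APOE4, -0.52 in APOE2 and -0.45 in APOE4D, beside -0.10, -0.20 and -0.06 over the 8 pericyte genes and a median of all genes tested within 0.011 of 0. The smooth muscle medians without F10N and F37N were -0.13, -0.32 and -0.20, and the pericyte medians -0.01, -0.07 and -0.04. Without F61N they were -0.46, -0.62 and -0.56 for smooth muscle and -0.06, -0.16 and 0.01 for pericyte genes. These comparisons share the 5 APOE3 libraries.

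The promoters of Myl9 and Cnn1 are shown as examples of the smooth muscle genes. They are taken from RefSeq (GRCm38.p6) and run 5′ to 3′ on the strand of the gene. Printed are those of the 250 bases before a tabled start of transcription that lie outside the annotated span of the gene. Capitals mark the CArG box, the site read by serum response factor in many contractile genes, here searched with at least 5 of its 6 middle bases A or T. The site is its own reverse complement in form, so 1 search covered both strands, and it did not overlap the other motif searched.
Myl9 (chr2:156775214-156775407, plus strand): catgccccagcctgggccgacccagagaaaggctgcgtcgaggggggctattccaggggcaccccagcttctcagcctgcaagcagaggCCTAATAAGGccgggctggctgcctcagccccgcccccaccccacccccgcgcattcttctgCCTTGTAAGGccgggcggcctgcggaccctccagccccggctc
Cnn1 (chr9:22099003-22099220, plus strand): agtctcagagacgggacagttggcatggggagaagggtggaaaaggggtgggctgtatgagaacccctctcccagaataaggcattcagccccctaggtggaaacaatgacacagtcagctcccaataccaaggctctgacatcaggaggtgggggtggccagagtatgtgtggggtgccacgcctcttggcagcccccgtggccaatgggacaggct
Myl9 held 2 sites, of which the first had all 6 middle bases A or T, and Cnn1 held none. The Acta2 window also held 2 sites, and it is not printed since 212 of its 250 bases lie inside the RefSeq span of the gene, which begins upstream of the tabled start. A site with at least 5 of 6 was found in the 300-base windows (250 before to 50 after the start) of 9.98% of 32851 promoters and of 4 of the 29 members with a tabled promoter, and one with all 6 in 1.63% and 2 of 29. Of the 10 mural genes among these members, 2 held a site with at least 5 of 6 and 1 held one with all 6. These matches are a description of the letters. Tagln, Myh11, Fn1, Mgp, Dcn, Col1a1, Pdgfrb, Higd1b and Lum were not matched.

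Among the collagen and laminin genes, Col6a1, Col6a2 and Col4a2 passed the test in at least 1 comparison, while Col4a1, Lama2, Col1a1, Col1a2 and Col3a1 did not pass in any. Col6a2 stood at 29.2, 30.5, 34.2, 31.0 and 34.5 CPM for the APOE2 mice, at 29.2, 43.8, 38.9, 33.2 and 30.8 for APOE3, at 22.6, 28.3, 25.4, 23.4 and 28.1 for APOE4 and at 28.4, 32.8, 32.2, 27.4 and 28.8 for APOE4D. Col6a2 encodes a chain of the beaded-filament collagen VI, and each APOE4 mouse was below each APOE3 mouse, as in 6.28% of all genes. The APOE4 mean of 25.6 ± 2.62 CPM lay under the APOE3 mean of 35.2 ± 6.05 (SD, 5 mice each), a log2 difference of -0.46 ± 0.10 with adjusted p = 0.00491 by edgeR's quasi-likelihood test. The call held with each library left out in turn. The call ended with 1 surrogate variable, and over all alternatives the adjusted p ran from 4.99e-05 to 0.242. Each APOE4 mouse was also below each APOE2 mouse, as APOE2 was above APOE4 without overlap in 4.15% of all genes, with a log2 fold change of APOE2 against APOE4 of 0.32 ± 0.10 (edgeR adjusted p = 0.0838), not past the threshold. Between APOE4D and APOE4, Col6a2 had a log2 fold change of 0.23 ± 0.10 (edgeR adjusted p = 0.418).

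Col6a1 encodes the partner chain and lies on chromosome 10 (76708792 to 76726044) near Col6a2 (76595756 to 76623630). Col6a1 stood at 95.2, 97.0, 119, 106 and 104 CPM for the APOE2 mice, at 123, 163, 152, 118 and 126 for APOE3, at 93.1, 127, 111, 99.1 and 104 for APOE4 and at 117, 131, 133, 98.8 and 96.1 for APOE4D. F37N and F39N were far above the other mice, and the APOE4 mouse F78N lay within the range of APOE3. The APOE4 mean of 107 ± 13 CPM lay under the APOE3 mean of 136 ± 19.9 (SD, 5 mice each), a log2 difference of -0.35 ± 0.10 with adjusted p = 0.0306 by edgeR's quasi-likelihood test. Leaving out F37N, F39N, F95K, FH66 or FH78 took the adjusted p to 0.0591, 0.0932, 0.0679, 0.0688 and 0.079. Settings that ended it were no filter, the series of the mouse IDs as a covariate, 1 surrogate variable, the FH mice left out and a trend on transcript length and GC subtracted, and over all alternatives the adjusted p ran from 0.0016 to 0.495. In APOE2 the mean was 104 ± 9.49 CPM, with a log2 fold change from APOE3 of -0.38 ± 0.10 (edgeR adjusted p = 0.0541).

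The promoters of both collagen VI genes, and that of Igfbp2 described further on, are shown as examples of genes that passed the test. The windows are the 250 bases before the outermost tabled start in RefSeq (GRCm38.p6), all outside the span of the gene, and capitals mark GGGCGG on either strand, the core read by Sp1-type factors.
Col6a1 (chr10:76726045-76726294, minus strand): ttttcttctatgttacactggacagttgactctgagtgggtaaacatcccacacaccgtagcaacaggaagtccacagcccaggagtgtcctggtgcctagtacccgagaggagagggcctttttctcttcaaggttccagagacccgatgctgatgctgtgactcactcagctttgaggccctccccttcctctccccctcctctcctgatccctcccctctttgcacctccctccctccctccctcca
Col6a2 (chr10:76623631-76623880, minus strand): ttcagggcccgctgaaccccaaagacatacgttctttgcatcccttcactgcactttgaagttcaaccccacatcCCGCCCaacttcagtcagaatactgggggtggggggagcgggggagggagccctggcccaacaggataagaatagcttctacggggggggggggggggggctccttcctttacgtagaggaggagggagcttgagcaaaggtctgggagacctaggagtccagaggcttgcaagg
Igfbp2 (chr1:72824230-72824479, plus strand): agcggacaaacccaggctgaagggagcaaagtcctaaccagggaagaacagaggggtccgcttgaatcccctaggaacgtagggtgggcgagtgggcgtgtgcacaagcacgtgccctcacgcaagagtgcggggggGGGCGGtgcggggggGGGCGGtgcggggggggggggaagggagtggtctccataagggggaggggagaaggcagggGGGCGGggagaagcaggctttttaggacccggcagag
GGGCGG was absent from the Col6a1 window and was present at 1 place for Col6a2 and at 3 for Igfbp2. The windows of Notch3 and Col4a2, which also passed, held it too and are not printed. It was found in 35.7% of all promoter windows and in 16 of 29 members.

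Col4a2 encodes a type IV collagen chain of the vascular basement membrane, and it was lower in both groups with the APOE4 label than in APOE3. Col4a2 stood at 82.0, 87.6, 73.3, 78.9 and 67.6 CPM for the APOE2 mice, at 70.6, 87.5, 89.9, 79.3 and 78.2 for APOE3, at 67.3, 69.3, 72.4, 67.3 and 72.9 for APOE4 and at 64, 73.8, 67.0, 65.6 and 70.2 for APOE4D. The values of F61N lay within the APOE4 and APOE4D ranges, and those of the 4 other APOE3 mice lay above them. The APOE4 mean of 69.8 ± 2.72 CPM lay under the APOE3 mean of 81.1 ± 7.77 (SD, 5 mice each), a log2 difference of -0.21 ± 0.06 with adjusted p = 0.019 by edgeR's quasi-likelihood test. In that comparison, leaving out F37N, F39N, F78N or FH78 took the adjusted p to 0.0762, 0.0678, 0.0532 and 0.0718. It did not hold with 1 surrogate variable, the FH mice left out, F10N and F37N both left out and a trend on transcript length and GC subtracted, and over all alternatives the adjusted p ran from 0.00265 to 0.443. APOE4D averaged 68.1 ± 3.88 CPM, a log2 difference from APOE3 of -0.25 ± 0.06 with adjusted p = 0.0128 by edgeR's quasi-likelihood test, and no single library ended that call. The call ended with 1 surrogate variable, the FH mice left out, F10N and F37N both left out and a trend on transcript length and GC subtracted, and over all alternatives the adjusted p ran from 0.00141 to 0.198. Col4a1 shares a bidirectional start with Col4a2 on chromosome 8, and the 2 spans overlap by annotation. Col4a1 had a log2 fold change of -0.07 ± 0.07 (edgeR adjusted p = 0.533) in APOE4 and -0.10 ± 0.06 (edgeR adjusted p = 0.331) in APOE4D, and Lama2, a laminin chain, had -0.07 ± 0.07 (edgeR adjusted p = 0.577) and 0.03 ± 0.07 (edgeR adjusted p = 0.839).

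Fibrillar collagen I is built from the products of Col1a1 and Col1a2. Col1a1 stood at 11.9, 7.85, 9.03, 8.87 and 7.0 CPM for the APOE2 mice, at 7.35, 12.2, 10.9, 12.2 and 8.62 for APOE3, at 7.48, 9.28, 9.75, 8.25 and 8.01 for APOE4 and at 9.47, 9.30, 7.12, 7.75 and 7.86 for APOE4D. Col1a2 stood at 20.7, 15.6, 15.8, 16.6 and 13.6 CPM for the APOE2 mice, at 16.8, 27.6, 21.5, 23.1 and 15.9 for APOE3, at 14.1, 18.3, 19.7, 13.9 and 14.8 for APOE4 and at 17.8, 19.4, 14.5, 16.9 and 14.4 for APOE4D. In both genes F37N was highest and F35J lowest of the 20 mice, and the groups overlapped. Col1a1 had a log2 fold change from APOE3 of -0.26 ± 0.15 (edgeR adjusted p = 0.243) in APOE4, and Col1a2 had -0.38 ± 0.16 (edgeR adjusted p = 0.12). Without F10N and F37N the APOE3 means were 8.94 and 18.1 CPM (n = 3), against 8.55 and 16.1 in APOE4. Col3a1, the collagen III chain, ran from 1.55 CPM in F35J to 4.04 in F58M and passed in no comparison.

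Small leucine-rich proteoglycans bind collagen fibrils and set their thickness. Dcn stood at 36.3, 27.3, 26.9, 26.4 and 32.8 CPM for the APOE2 mice, at 27.8, 35.1, 25.9, 30.0 and 23.6 for APOE3, at 26.9, 27.6, 29.2, 31.1 and 25.1 for APOE4 and at 28.4, 28.3, 25.5, 23.5 and 23.5 for APOE4D. Dcn encodes decorin, and its means stood between 25.8 CPM in APOE4D and 29.9 in APOE2, with FH124 highest and F19M lowest. Fmod (fibromodulin) had a far wider range, from 14.2 CPM in F35J to 52.8 in F37N, and Ogn (osteoglycin) ran from 8.15 in F35J to 19.4 in F37N. Bgn (biglycan) ran from 18.0 to 33.8 CPM and Lum (lumican) from 2.40 to 4.66. None of the 5 passed in any comparison. The log2 fold changes of APOE4 from APOE3 reached from -0.55 ± 0.26 (edgeR adjusted p = 0.164) in Fmod to 0.02 ± 0.19 (edgeR adjusted p = 0.963) in Lum.

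Mgp, an inhibitor of calcification made by smooth muscle and fibroblasts, had the largest log2 fold change of the 38 genes between APOE4 and APOE3. Mgp stood at 32.8, 31.3, 25.6, 24.2 and 42.3 CPM for the APOE2 mice, at 29.5, 51.1, 41.7, 44.1 and 32.1 for APOE3, at 24, 27.2, 29.1, 22.2 and 20.6 for APOE4 and at 24.4, 32.9, 18.8, 27.1 and 24.1 for APOE4D. Each APOE4 mouse was below each APOE3 mouse, as in 6.28% of all genes, although F58M and F61N were close. The APOE2 mice spread from below F58M up to the level of F39N, and FH85 in APOE4D lay within the APOE3 range. The APOE4 mean of 24.6 ± 3.51 CPM lay under the APOE3 mean of 39.7 ± 8.89 (SD, 5 mice each), a log2 difference of -0.69 ± 0.19 with adjusted p = 0.0204 by edgeR's quasi-likelihood test. Without FH66 or FH78 the adjusted p was 0.0552 and 0.0548. Settings that ended it were the series of the mouse IDs as a covariate, 1 surrogate variable, the FH mice left out, F10N and F37N both left out and a trend on transcript length and GC subtracted, and over all alternatives the adjusted p ran from 0.00231 to 0.329. APOE4D averaged 25.5 ± 5.14 CPM, a log2 difference from APOE3 of -0.64 ± 0.18 with adjusted p = 0.0427 by edgeR's quasi-likelihood test. That call ended without F10N, F37N, F39N, F12M, F19M, FH51 or FH68, at adjusted p-values of 0.103, 0.0999, 0.095, 0.0976, 0.0712, 0.0865 and 0.104. It did not hold with no filter, only the groups compared in the fit, the series of the mouse IDs as a covariate, 1 surrogate variable, the FH mice left out, F10N and F37N both left out and a trend on transcript length and GC subtracted, and over all alternatives the adjusted p ran from 0.00967 to 0.284.

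The other matrix genes did not pass. Fn1 (fibronectin) ran from 42.9 CPM in FH68 to 71.5 in F37N, Aebp1 (a collagen-binding carboxypeptidase-like protein) from 18.8 in F74M to 42.8 in F37N, and Pcolce, an enhancer of the protease that trims procollagen, from 8.37 in FH68 to 15.7 in F10N. Postn (periostin) ran from 2.42 to 3.89 CPM, and F35J rather than F37N was highest. Pcolce came nearest to the threshold, at a log2 fold change of -0.34 ± 0.13 (edgeR adjusted p = 0.0624) in APOE4 against APOE3.

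Igfbp2 was lower in APOE2 than in APOE3. Igfbp2 stood at 45.4, 31.5, 38.9, 41.8 and 32.1 CPM for the APOE2 mice, at 45.5, 66.7, 57.3, 69.4 and 48.1 for APOE3, at 44.0, 49.0, 46.2, 41.2 and 42.3 for APOE4 and at 43.8, 49.8, 41.5, 41.6 and 45.9 for APOE4D. The highest APOE2 mouse was just under the lowest APOE3 mouse, F61N, a separation seen in 2.70% of all genes in this direction. F37N, F39N and F10N were the highest 3 of all mice. The APOE2 mean of 37.9 ± 6.07 CPM lay under the APOE3 mean of 57.4 ± 10.7 (SD, 5 mice each), a log2 difference of -0.59 ± 0.13 with adjusted p = 0.0197 by edgeR's quasi-likelihood test. Without F74M, F10N or F39N the adjusted p was 0.0571, 0.0502 and 0.0517. The call ended with only the groups compared in the fit, 1 surrogate variable, F10N and F37N both left out and a trend on transcript length and GC subtracted, and over all alternatives the adjusted p ran from 0.000508 to 0.0921. APOE4 and APOE4D lay between, with log2 fold changes from APOE3 of -0.36 ± 0.13 (edgeR adjusted p = 0.0678) and -0.36 ± 0.12 (edgeR adjusted p = 0.0694).

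Igf2, the growth factor that meningeal fibroblasts and choroid plexus secrete, did not follow that order. Igf2 stood at 6.48, 4.57, 6.14, 5.57 and 3.87 CPM for the APOE2 mice, at 4.11, 7.55, 5.43, 7.34 and 4.76 for APOE3, at 5.86, 7.60, 5.22, 5.89 and 4.90 for APOE4 and at 5.89, 7.03, 5.42, 4.38 and 5.72 for APOE4D. The 4 groups overlapped and the log2 fold change of APOE4 from APOE3 was 0.01 ± 0.18 (edgeR adjusted p = 0.967). Its span holds the antisense RNA Igf2os and a microRNA, so that its count could include their reads.

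The most abundant member, Ptgds, was split within APOE3. Ptgds stood at 1385, 1098, 1153, 958 and 838 CPM for the APOE2 mice, at 882, 1839, 1161, 1896 and 895 for APOE3, at 878, 879.6, 913, 781 and 754 for APOE4 and at 1428, 1201, 859, 887 and 813 for APOE4D. F37N and F10N were far above the other mice, while F61N and F64M were at the level of the APOE4 mice. The APOE4 mean of 841 ± 69.1 CPM lay under the APOE3 mean of 1335 ± 499.7 (SD, 5 mice each), a log2 difference of -0.66 ± 0.23 with adjusted p = 0.0551 by edgeR's quasi-likelihood test. Without F37N and F10N the APOE3 mean was 979 ± 157 CPM (SD, n = 3). Ptgds did not pass in the fit of 15 libraries. It was called lower in APOE4 by DESeq2 (adjusted p = 0.0175), by limma-voom (0.022), and by edgeR in the fit of all 20 libraries (0.044), without F61N (0.0203) or without F64M (0.0314), and without F37N and F10N its edgeR adjusted p was 0.41 at a log2 fold change of -0.21.

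Transporters of the arachnoid and meningeal barrier were also highest in F37N. Slc6a13 stood at 22.5, 13.7, 14, 17.5 and 12.9 CPM for the APOE2 mice, at 12.6, 28.9, 15.3, 26.1 and 14.9 for APOE3, at 15.1, 13.5, 14.4, 11.9 and 11.7 for APOE4 and at 18.3, 16.9, 12.3, 11.5 and 12.3 for APOE4D. Slc6a13 carries GABA and taurine, and F37N and F10N were again the highest 2 mice, with FH124 next. Its log2 fold change of APOE4 from APOE3 was -0.55 ± 0.24 (edgeR adjusted p = 0.131). Slc13a3, a dicarboxylate transporter, ran from 14.7 CPM in FH66 to 31.0 in F37N, and Slc22a6, an organic anion transporter, from 6.00 in F35J to 19.3 in F37N. The log2 fold changes of APOE4 from APOE3 were -0.43 ± 0.15 (edgeR adjusted p = 0.0574) and -0.46 ± 0.30 (edgeR adjusted p = 0.309).

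**Figure D4:**
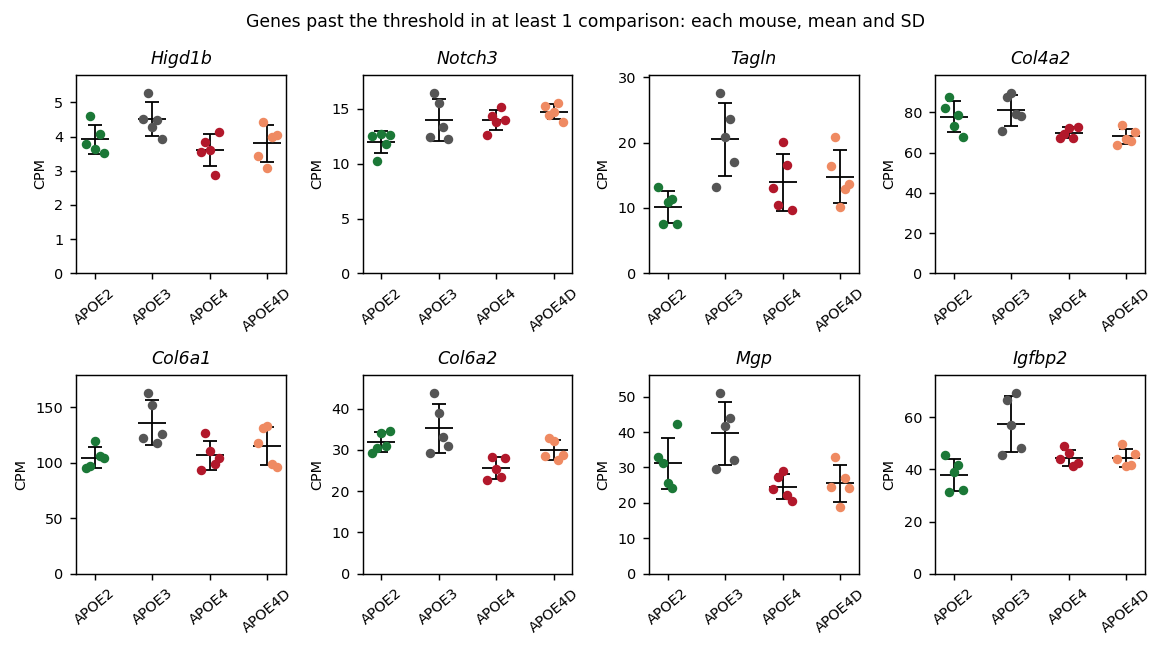
CPM of the 8 genes past the threshold in at least 1 comparison, with 1 point per mouse (5 per group) and a bar for the mean and SD. APOE3 has the highest mean in all of them but Notch3, where APOE4D is highest at 14.8 CPM, and the APOE3 SD is wide in Tagln, Mgp and Igfbp2.

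Between APOE4 and APOE3, 5 of the 38 genes were lower and 0 higher, namely Higd1b, Col4a2, Col6a1, Col6a2 and Mgp. Of all 21022 genes tested, 21.0% passed in this comparison and 10.2% were lower, so the share of these genes that passed is near or under the background. The median log2 fold change was -0.23 over the 14 mural and -0.30 over the 24 fibroblast genes, against -0.011 over all genes tested, and 32 of the 38 were below 0. Without F10N and F37N the medians were -0.08 and -0.11, with 0 mural and 2 fibroblast genes called (Col6a1 and Col6a2) and 12.4% of all genes. Without F61N they were -0.30 and -0.37, with 2 mural (Anpep and Myl9) and 9 fibroblast genes and 27.1% of all genes.

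APOE2 against APOE3 gave 2 lower genes of 38, Tagln and Igfbp2, and 0 higher, where 4.89% of all genes passed and 3.05% were lower. Medians were -0.20 (mural) and -0.30 (fibroblast), with 32 of 38 below 0. Without F10N and F37N they were -0.14 and -0.04 with no gene of either set called and 2.2% of all genes, and without F61N -0.25 and -0.38 with 3 mural and 5 fibroblast genes called and 11.9% of all genes.

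APOE4D against APOE3, in the fit of all 20 libraries, gave 2 lower genes, Col4a2 and Mgp, where 8.41% of the 21041 genes tested passed and 4.49% were lower. Medians were -0.23 and -0.25, with 35 of 38 below 0. They became -0.09 and -0.03 without F10N and F37N, with no gene called and 4.19% of all genes, and -0.29 and -0.34 without F61N, with 1 mural and 7 fibroblast genes called and 15.7% of all genes.

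**Figure D5:**
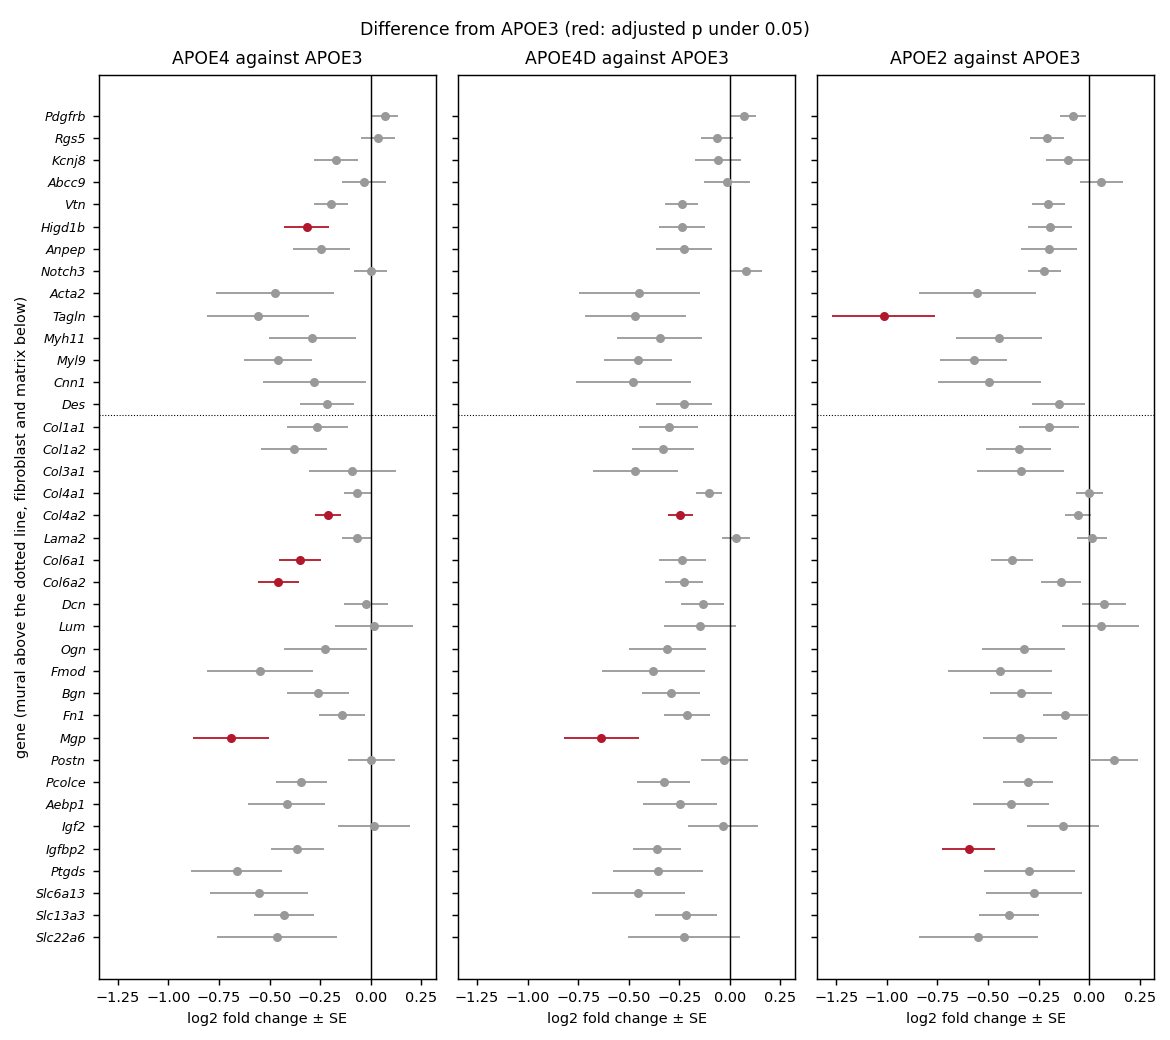
Log2 fold change from APOE3 with its standard error for the 38 genes in APOE4, APOE4D and APOE2 (edgeR, 5 mice per group, red where the adjusted p is under 0.05). Most points lie left of 0 in each panel, and the bars are widest in APOE4 for Slc22a6, Acta2 and Fmod. The panels share the 5 APOE3 libraries.

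Comparisons that leave APOE3 out had medians near 0. APOE2 against APOE4 had medians of -0.10 (mural) and 0.04 (fibroblast), 16 of 38 genes below 0 and 0 called by edgeR, with 5 at an unadjusted p under 0.05, while 5.89% of all genes passed and 20.1% had such a p. DESeq2 called 2 genes there, Rgs5 and Col6a2, where it called 7.45% of all genes. APOE2 against APOE4D had medians of -0.07 and 0.04 and 1 gene lower, Notch3, where 4.12% of all genes passed and 2.26% were lower. APOE4D against APOE4, groups with the same genotype label, had medians of 0.01 and 0.01 and 0 genes called by edgeR, DESeq2 or limma-voom. Col6a2 was the only member with an unadjusted p under 0.05. In the fit of all 20 libraries 0% of all genes passed by edgeR, with 10.9% at an unadjusted p under 0.05. In an edgeR fit of only these 2 groups, 1% of all genes passed.

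Genes of the same pathways outside the 38 were counted in the same fits. Of 28 other collagens and laminins, 8 were lower and 2 higher in APOE4 than in APOE3, with a median log2 fold change of -0.15, where 21.0% of all genes passed and 10.2% were lower. With F10N and F37N left out, 3 were lower and 1 higher at a median of -0.06, where 12.4% of all genes passed. Col5a1, which joins collagen I fibrils, averaged 27.2 ± 2.21 CPM in the APOE4 and 36.0 ± 3.21 in the APOE3 mice (SD, 5 each), a log2 difference of -0.40 ± 0.06 (edgeR adjusted p = 0.000122), and without those 2 mice it was -0.36 (adjusted p = 0.00194). Col12a1, a fibril-associated collagen, was lower in APOE2, averaging 12.1 ± 1.51 CPM there, 17.4 ± 1.16 in APOE3, 20.3 ± 1.72 in APOE4 and 19.5 ± 1.07 in APOE4D mice (SD, 5 each). Its log2 fold change in APOE2 was -0.53 from APOE3 (edgeR adjusted p = 7.18e-05), -0.75 from APOE4 (2.2e-07) and -0.70 from APOE4D (3.43e-08). Of 20 genes of collagen maturation, 6 were lower and 0 higher in APOE4 than in APOE3, among them Crtap, a subunit of the prolyl 3-hydroxylase complex, with a log2 difference of -0.44 ± 0.08 (edgeR adjusted p = 0.000704). Of the 20, 4 were lower without F10N and F37N, Crtap among them at -0.38 (edgeR adjusted p = 0.0111).

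Further contractile genes gave 2 lower (Tpm2 and Sncg) and 2 higher (Synpo2 among them) of 20 in APOE4 against APOE3, at a list median of -0.06. Synpo2 had a log2 difference of 0.16 ± 0.05 (edgeR adjusted p = 0.0304). Tpm2, a tropomyosin of smooth muscle, averaged 11.1 ± 1.247 CPM in the APOE4 and 17.3 ± 2.93 in the APOE3 mice (SD, 5 each), a log2 difference of -0.64 ± 0.11 (edgeR adjusted p = 0.000532). Of 20 genes of the PDGF and Notch pathways, 2 were lower (Pdgfb, the endothelial ligand of Pdgfrb, at a log2 fold change of -0.24, and Pdgfa, at -0.18) and 1 was higher (Pdgfra, at 0.26, a receptor that also marks oligodendrocyte precursors). Between APOE2 and APOE4D, Dll4, an endothelial Notch ligand, and Hey1, a Notch target, were lower in APOE2. Their log2 fold changes were -0.39 (edgeR adjusted p = 0.0261) and -0.16 (edgeR adjusted p = 0.0195). They were the only 2 of these 20 PDGF and Notch genes that passed there, and the list median was -0.04. Of all genes, 4.12% passed in that comparison and 2.26% were lower. TGF-beta pathway genes gave 2 higher and 2 lower of 21 in APOE4 against APOE3, matrix proteases and their inhibitors 1 higher of 15, and other meningeal genes 1 higher and 5 lower of 29. The shares of these 5 lists that passed in either direction (6.67% to 20.7%) lay under the 21.0% of all genes. The 5 lower of 29 meningeal genes were a larger share than the 10.2% of all genes that were lower. With F10N and F37N both left out, Tpm2 (-0.47, edgeR adjusted p = 0.00527), Pdgfb, Pdgfa and Pdgfra kept their calls, and the meningeal list gave 2 higher and 1 lower. The contractile list then gave 2 higher and 2 lower at a median of 0.04, where 12.4% of all genes passed.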

How the data were processed

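Each of the 20 libraries (5 mice per group) took its group from the genotype in its title. The authors deposited raw counts of 50-base single reads for each gene symbol. STAR 2.7.0, featureCounts, DESeq2 and GRCm38 (mm10) are named in the submitters' processing notes, whereas the strand setting of the counting was not stated. The other deposited tables, including the authors' own comparisons (fold changes and p-values), were not used here.

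Tests were run with edgeR 4.0.16 and limma 3.58.1 under R 4.3.3. A gene entered a fit when it exceeded 0.1 CPM in over 40% of that fit's libraries. After TMM scaling, the robust quasi-likelihood test was adjusted by Benjamini-Hochberg over all genes (threshold 0.05). One fit held the 15 libraries of APOE2, APOE3 and APOE4, and the other, for APOE4D, held all 20. The standard error is the log2 fold change over the root of the F statistic. Each library is 1 mouse, so the tests set a group difference against the spread between mice. That spread was estimated over all libraries of a fit, with information shared across genes. The steps were tested on simulated counts.

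The 38 genes, the other lists and the tests were chosen with earlier results of these data known. Values by library are given for members past the threshold and for Pdgfrb, Rgs5, Acta2, Myh11, Col1a1, Col1a2, Dcn, Slc6a13, Igf2, Ptgds and Mgp, and from a related list up to 3 genes of smallest p past the threshold could be named. Alternatives were RLE factors, no filter, filterByExpr, DESeq2 1.42.0, limma-voom, other groups in the fit, a covariate for FH mouse IDs, 1 surrogate variable (sva 3.50.0), the FH mice, F61N, FH111 or both F10N and F37N left out, subtraction of a loess trend (span 0.3) on transcript length and GC content, and each library left out in turn. The values of the pericyte, smooth muscle and related lists without F10N and F37N, or without F61N, were added after seeing the data. RefSeq (GRCm38.p6) gave positions and promoters, and GENCODE gave transcript lengths. In RefSeq, 14 members overlap another gene. Figures were drawn with matplotlib 3.10.9.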

Additional observations from a re-analysis of the deposited data

Results flagged for a closer look

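Of 152 sets of 5 mice (38 genes in 4 groups), 2 held a mouse farther from its group than Dixon's 95% criterion allows, where chance gives about 1 in 20. Fn1 in APOE4 was at 62.3 CPM in F58M and between 50.8 and 52.3 in the 4 other mice. Slc13a3 in APOE2 was at 24.5 CPM in FH124 and between 16.1 and 18.1 in the others. Neither gene passed in a comparison.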

How the results depend on the processing

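No paired analysis was possible because the labels carry mouse IDs and no replicate numbers shared between groups. No called gene changed direction under an alternative. The medians against APOE3 stayed below 0 in every alternative run, from -0.37 to -0.11 (fibroblast) and -0.30 to -0.08 (mural) for APOE4, from -0.38 to -0.04 and -0.25 to -0.14 for APOE2, and from -0.34 to -0.03 and -0.32 to -0.09 for APOE4D, while those of the comparisons without APOE3 lay between -0.20 and 0.11. Of these, the mural median of APOE2 was below 0 in 24 of 25 alternatives against APOE4 and in 22 of 23 against APOE4D. Counts of genes called moved more. For APOE4 against APOE3 (1 mural, 4 fibroblast), DESeq2 gave 2 and 8, limma-voom 3 and 7, the ID series as a covariate 0 and 2, 1 surrogate variable 0 and 0, the FH mice left out 0 and 1, F61N left out 2 and 9, F10N and F37N left out 0 and 2, and the length and GC trend removed 0 and 1. No filter, a fit of only these groups, or FH111 left out gave 0 mural genes, while joining APOE4D to APOE4 gave 3 and 6, and a fit of all 20 libraries 1 and 6. The share of all genes called moved too, from 21.0% to 23.4% by DESeq2 or in the fit of all 20 libraries, 13.9% with the ID covariate, 3.98% with 1 surrogate variable, 6.63% without the FH mice, 27.1% without F61N, 12.4% without F10N and F37N and 10.3% with the trend removed. It ranged over these alternatives from 2.20% to 11.9% for APOE2 and from 2.20% to 15.7% for APOE4D against APOE3. Without APOE3, it ranged from 2.54% to 9.01% for APOE2 against APOE4 and from 1.36% to 6.25% for APOE2 against APOE4D. For APOE4D against APOE4 it ranged from 0% to 1%. For APOE2 against APOE3 (1 and 1), DESeq2 and limma-voom gave 2 and 2, a fit of only these groups, 1 surrogate variable, or F10N and F37N left out gave 0 and 0, and F61N left out gave 3 and 5. There, no filter, the ID covariate, or FH111 left out gave 0 mural genes, filterByExpr 2 fibroblast genes and the trend removed 0. For APOE2 against APOE4 (0 and 0), DESeq2 or a fit of only these groups gave 1 and 1, as did APOE4 and APOE4D joined, the FH mice or F61N left out gave 1 mural gene, and F10N and F37N left out 1 fibroblast gene. All-gene shares there were 7.45% by DESeq2, 9.01% in the fit of only these groups and 6.81% with APOE4D joined. They were 2.54% without the FH mice, 7.48% without F61N and 5.12% without F10N and F37N. For APOE4D against APOE3 (0 and 2), DESeq2 or limma-voom gave 1 mural gene, F61N left out gave 1 and 7, no filter, a fit of only these groups, or the ID covariate gave 1 fibroblast gene, and 1 surrogate variable, the FH mice left out, F10N and F37N left out, or the trend removed gave 0. For APOE2 against APOE4D (1 and 0), the FH mice left out gave 0 mural genes, and F61N left out or the trend removed gave 1 fibroblast gene. All-gene shares in these 3 settings were 1.36%, 5.01% and 5.74%, in that order. Leaving out single libraries gave 0 to 2 mural and 1 to 9 fibroblast genes for APOE4 against APOE3, 0 to 3 and 0 to 5 for APOE2 against APOE3, 0 to 1 mural and 0 fibroblast genes for APOE2 against APOE4, 0 to 2 and 1 to 7 for APOE4D against APOE3, and 0 to 1 and 0 to 1 for APOE2 against APOE4D. The highest counts for APOE4 (9), APOE2 (5) and APOE4D (7) against APOE3 came without F61N. APOE4D against APOE4 gave 0 in each alternative. The exact permutation test (two-sided, 5 against 5, smallest p 0.00794) gave 0.00794 for Col6a2 and Mgp in APOE4, for Tagln and Igfbp2 in APOE2, each against APOE3, and for Notch3 in APOE2 against APOE4D. It gave 0.0238 for Col4a2, 0.0317 for Col6a1 and 0.0159 for Higd1b in APOE4, and 0.0159 for Col4a2 and 0.0238 for Mgp in APOE4D, each against APOE3. The cause of these differences was not tested. The lowest read count of a member in any library was 19, which limits the precision of the least abundant ones.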
